A study of Zea mays with 64 samples.

Results

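Plants 2, 3 and 4 of maize family NE72 carried new Mu transposon insertions in common, and they were compared with plants 1, 5, 8 and 9 of the same family. The plants were chosen by the measured sharing of new insertions among them. An insertion was called new when it had at least 1000 CPM (counts per 1000000 counts of its library) in leaf and in endosperm of a plant and under 10 counts in each of the 4 father libraries. It was called shared when it was new in 2 or more of the 7 plants, and single-plant when it was new in 1. The rule gave 330 new insertions among the 1091553 sites of the table, of which 36 were shared and 294 were single-plant. The sharing between the plants is therefore given as a description, without a test. The 3 plants contributed 6 of the 64 libraries of the series and the other 4 plants contributed 8.

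Mu elements (Mutator) are DNA transposons of maize that move when an active transposase, encoded by the autonomous MuDR element, is present. Many of their insertions arise late in the development of a plant, so that most are found in few cells. An insertion that lies in the cells that form pollen can be inherited, and a pollen grain brings a pair of sperm cells, one of which gives the embryo and later the leaf while the other gives the endosperm, the triploid storage tissue of the kernel. An insertion present in both sperm cells is found in both tissues of a kernel. In general, an insertion that arises early in the cell lineage of a tassel can reach several pollen grains, and one that arises late can reach few.

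The genotype of every plant was W22, an inbred line. The labels describe each family as the product of a bulk pollen cross, in which pollen of a Mu-active W22 plant was put on an ear of a Mu-inactive W22 plant, and they name plant ND67-51 as the father of NE72. A chip of each kernel gave the endosperm sample, and the first leaf was taken from the seedling of that kernel 10 to 13 days after sowing. The father was represented by 1 library, made from endosperm of the kernel from which it came, so its tassel and pollen were not measured. The assay, MuSeq2, reads insertion sites from DNA that is sheared to a mean of 1000 bp, receives an adapter and is amplified by PCR next to Mu ends. Positions are those of the deposited tables, whose genome build is not given in the sources used here, so no gene annotation is attached to any site.

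Summed counts of the leaf libraries were 380110, 687094 and 312329 in plants 2, 3 and 4, and 377381, 512572, 25037 and 371236 in plants 1, 5, 8 and 9. Leaf DNA came from a column kit and endosperm DNA from a modified CTAB extraction, so tissue and extraction cannot be told apart. Endosperm libraries were shallower, with 73941, 36697 and 12521 counts in plants 2, 3 and 4, and 23657, 10173, 5999 and 14799 in plants 1, 5, 8 and 9. The minimum of 1000 CPM thus stood for as few as 6.00 counts in endosperm of plant 8 and for 73.9 in endosperm of plant 2. Detection floors given here cover counting error only, since no molecular identifiers are stated and copies made by PCR do not count molecules independently. Confidence intervals cover only the number of sites. The labels name separate plants, so the plant was the replicate, and they give no batch.

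Plants 2, 3 and 4 had about as many new insertions as the other plants of the family, and 40.4 to 55.2% of theirs were held in common. Plant 2 had 54 new insertions, of which 26 were shared, plant 3 had 58 with 32 shared, and plant 4 had 47 with 19 shared. Plant 1 had 54 new insertions with 1 shared, and plants 5, 8 and 9 had 57, 58 and 44 with 0 shared. The shared part was 47.9% ± 7.38 of the new insertions in plants 2, 3 and 4 (SD, n = 3), and the single-plant insertions numbered 27.3 ± 1.15 there against 53.0 ± 6.38 in the other plants (SD, n = 4). The ranges of single-plant insertions, 26 to 28 and 44 to 58, did not overlap. Because a new insertion counts as either shared or single-plant, this difference is not independent of the choice of the plants and is given without a test.

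The number of all new insertions per plant includes the shared ones, so it is also given without a test. It was 53.0 ± 5.57 in plants 2, 3 and 4 (SD, n = 3) and 53.3 ± 6.40 in plants 1, 5, 8 and 9 (SD, n = 4). The difference of -0.25 insertions was smaller than the SD of either set, and the ranges, 47 to 58 and 44 to 58, overlapped.

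**Figure D1:**
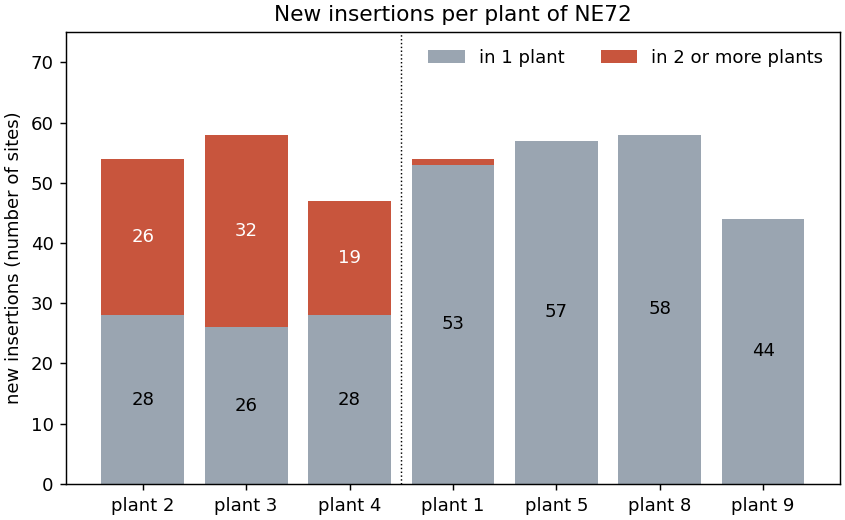
New insertions in each of the 7 NE72 plants (number of sites), divided into those in 1 plant (grey) and those in 2 or more plants (red). Plants 2, 3 and 4, left of the dotted line, had 26, 32 and 19 shared insertions, while the totals of all 7 plants lay between 44 and 58.

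Of the 330 new insertions of NE72, 10.9% were shared. Carriers were restricted almost entirely to the 3 plants: 35 of the 36 shared insertions were in plants 2, 3 and 4 alone, and 1 was also in plant 1. Among the 118 new insertions found in any of plants 2, 3 and 4, 36 were in at least a pair of these plants (30.5%). Among the 213 found in any of plants 1, 5, 8 and 9, 0 were in a pair of those plants (0%). Plants 8 and 5 had the shallowest endosperm libraries of the family, and all 4 plants were also read at the shared sites in leaf.

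The commonest carrier set was plants 2 and 3, with 16 shared insertions on 6 chromosomes. Plants 3 and 4 held 10 insertions on 6 chromosomes, and plants 2 and 4 held 4, all on chromosome 1. Carriage by all of plants 2, 3 and 4 was seen at 5 insertions on 3 chromosomes. Counted by pair, plants 2 and 3 had 22 new insertions in common, plants 3 and 4 had 15 and plants 2 and 4 had 9. Every pair within the 3 plants thus had insertions that the remaining plant of the 3 lacked. The number of shared insertions rests on each of the 3 plants: it was 10 without plant 3, 16 without plant 2 and 22 without plant 4.

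The shared insertions were well separated from sites below the minimum. Ranked by the level in the plant with the second highest value, taking the lower of its tissues, the 3 lowest shared insertions had 2098, 2052 and 1962 CPM. They lay on chromosome 9 from 20382717 to 20382725, on chromosome 4 from 182381488 to 182381490 and on chromosome 10 from 45387323 to 45387331. The next 3 sites had 79.9, 40.8 and 39.9 CPM. The first 2 of these lay 1 bp to either side of the shared insertion on chromosome 9, from 20382716 to 20382724 and from 20382718 to 20382726, and the third was on chromosome 10 from 126828973 to 126828981. No site had a second plant between 79.9 and 1962 CPM.

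**Figure D2:**
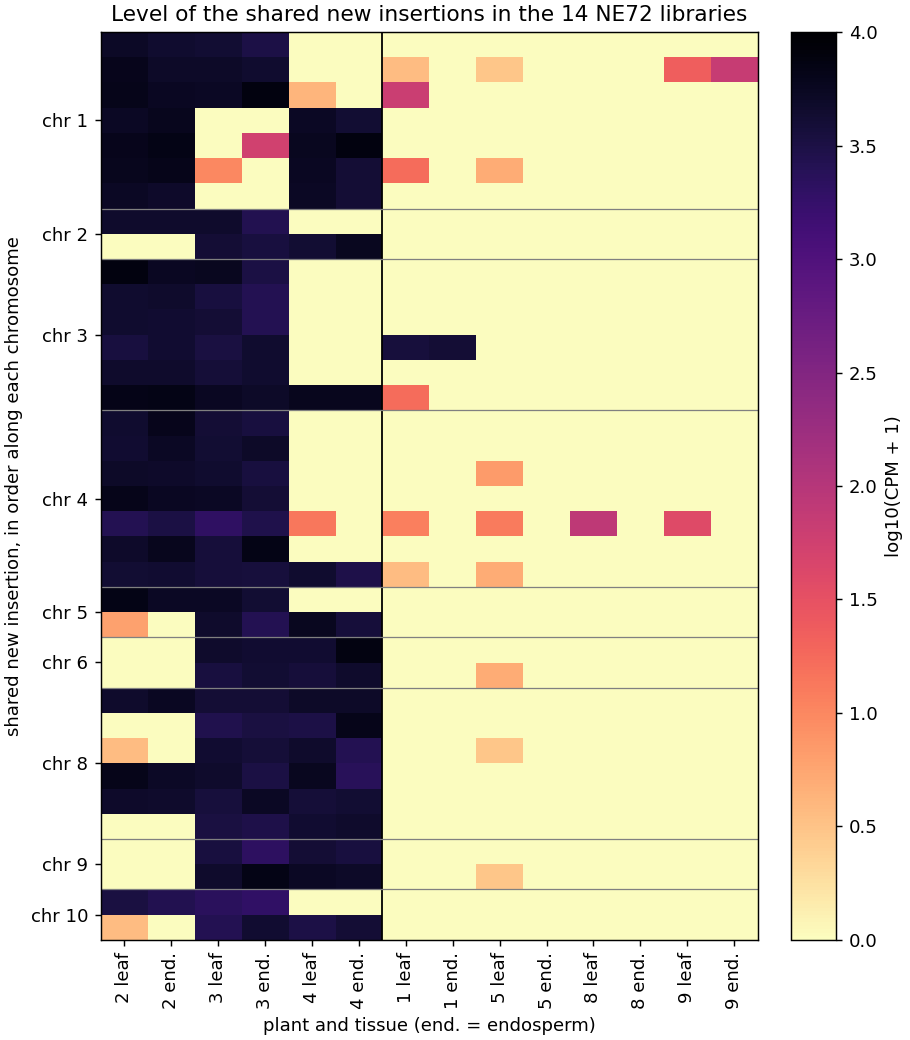
Level of the 36 shared new insertions (rows, in order along each chromosome) in the 14 NE72 libraries (columns, leaf and endosperm of each plant) as log10(CPM + 1). Dark cells fall left of the vertical line, in plants 2, 3 and 4, apart from 1 insertion on chromosome 3 that is also dark in leaf and endosperm of plant 1.

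The 5 insertions carried by all of plants 2, 3 and 4 were at over 2000 CPM in both tissues of each plant, where the rule asks for 1000 CPM. The insertion on chromosome 3 from 240698698 to 240698706 had 6572, 5618 and 5898 CPM in leaf of plants 2, 3 and 4 and 6924, 5014 and 5910 CPM in their endosperm. On chromosome 4, from 251613515 to 251613523, the leaf values were 4194, 3653 and 4524 CPM and the endosperm values 4328, 3597 and 2955 CPM. At both sites every carrier was far above the minimum in both tissues, and plant 3 was the lowest of the 3 plants in leaf.

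The other 3 insertions in all of these plants lay within one stretch of chromosome 8. From 12335066 to 12335074, leaf had 4693, 4011 and 4899 CPM in plants 2, 3 and 4, and endosperm had 5491, 4060 and 5032 CPM. From 20237934 to 20237942, leaf had 6319, 4633 and 5629 CPM and endosperm had 5166, 3243 and 2316 CPM, the last from 29 counts. From 27527436 to 27527444, leaf had 4757, 3554 and 3842 CPM and endosperm had 4598, 5232 and 4153 CPM. The endosperm of plant 4 at the middle site was the lowest of these values.

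One shared insertion reached beyond the 3 plants. On chromosome 3 from 207133564 to 207133572, leaf had 3633, 3515 and 3330 CPM in plants 1, 2 and 3, and endosperm had 3973, 4247 and 4496 CPM. Its mean was 3493 ± 153 CPM in leaf and 4239 ± 262 CPM in endosperm (SD, n = 3), so that plant 1 carried it at the level of plants 2 and 3. The other libraries of the family and all libraries of the other families had 0 counts there.

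Among the remaining shared insertions, the 10 at the highest mean level are named here, and presence in both tissues of a carrier is part of the rule. The highest was on chromosome 1 from 276233263 to 276233271 in plants 2 and 4, with 6075 and 5779 CPM in leaf and 6789 and 7667 CPM in endosperm. It was followed by the insertion on chromosome 1 from 48416202 to 48416210 in plants 2 and 3, with 6288 and 5338 CPM in leaf and 5437 and 7657 CPM in endosperm. The insertion on chromosome 3 from 23467006 to 23467014 had 7556 and 5682 CPM in leaf of plants 2 and 3, of which 7556 CPM is the highest leaf value of any carrier, and 5518 and 3188 CPM in endosperm. The remaining 7 had mean levels from 5196 to 5472 CPM over the libraries of their carriers. They lay on chromosome 1 from 279782490 to 279782498 and from 144495030 to 144495038 in plants 2 and 4, and on chromosome 4 from 245316111 to 245316119 and from 176349896 to 176349904 in plants 2 and 3. The others were on chromosome 5 from 61942296 to 61942304 in plants 2 and 3, on chromosome 9 from 97605932 to 97605940 and on chromosome 6 from 108555978 to 108555986, both in plants 3 and 4.

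Over all 36 shared insertions and their carriers, leaf levels ran from 2052 to 7556 CPM and endosperm levels from 1962 to 7667 CPM. At 35 of the 36 the listed coordinates spanned 9 bp with both ends included, the length of the duplication that Mu makes at its target. The exception was the insertion on chromosome 4 from 182381488 to 182381490. The same span was found at 292 of 294 single-plant (99.3%) and 60 of 60 segregating paternal insertions, so it does not set the shared ones apart. All 36 were in the authors' deposited table of transmitted insertions with the same carriers as here, and 0 of them were listed there for the father. All 294 single-plant insertions were also listed there, each with the same plant as here.

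Plants that did not carry a shared insertion had almost no counts at it. Of 348 combinations of a shared insertion and a library of a non-carrying NE72 plant, 25 had any count, with a highest value of 24 counts in leaf of plant 1 at the chromosome 1 site from 48416202 to 48416210 (63.6 CPM). The highest level was 79.9 CPM, which was 2 counts in the leaf library of plant 8 at the 3 bp wide site on chromosome 4. At 23 of the 36 insertions every non-carrying library of the family had 0 counts. The largest detection floor, 3 counts, was 500.1 CPM in endosperm of plant 8 and 119.8 CPM in leaf of plant 8. Both floors were below 1962 CPM, the lowest level of any carrier.

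Of the father's 610687 counts, 4 fell on the shared insertions: 33 of the 36 had 0 counts and the other 3 had 1 or 2. A count of 0 there allows a level of up to 4.91 CPM. The 60 paternal insertions that segregated in the family had a median of 6558 CPM in the father, with a range from 1019 to 10018 CPM. Father level was part of both calls. New insertions needed under 10 counts in each father library, which is 16.4 CPM in the NE72 father, and paternal insertions needed 1000 CPM there. The contrast therefore largely follows from the rules and is given as a description. The other fathers had counts at 5 of the 36, at most 4. Of the 294 single-plant insertions, 261 had 0 counts in the NE72 father.

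Co-segregation was read from the order of carriers along each chromosome. Of 27 pairs of neighbouring shared insertions on one chromosome, 16 had the same carriers (59.3%), with carriage by plant 1 counted as a difference. Segregating paternal neighbours carried by at least a pair of plants 2, 3 and 4 had the same carriers in 11 of 20 pairs (55%). That paternal count read plants 2, 3 and 4 alone, so the shares are not fully matched. Within 20 Mb the same carriers were found in 8 of 12 shared and 5 of 11 paternal pairs. Beyond it the numbers were 8 of 15 and 6 of 9. Over all pairs, carriers among plants 2, 3 and 4 were the same in 42 of 77 pairs on one chromosome (54.5%) and in 155 of 553 pairs on different chromosomes (28.0%). The 30 segregating paternal insertions carried by at least a pair of plants 2, 3 and 4 gave 20 of 50 pairs on one chromosome (40.0%) and 92 of 385 on different chromosomes (23.9%). The sites of a pair share plants and libraries, so these shares are descriptions.

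Long runs of one carrier set were found on chromosomes 1, 3 and 4. On chromosome 1, the 3 insertions from 31886868 to 48416210 were in plants 2 and 3, and the 4 insertions from 144495030 to 309861153 were in plants 2 and 4. Plant 2 thus carried all 7 of them, while plants 3 and 4 divided them without overlap. On chromosome 4, the 6 insertions from 22340799 to 245316119 were all in plants 2 and 3, and the seventh, 6.30 Mb farther on, was also in plant 4. On chromosome 3, plants 2 and 3 carried all 6 insertions, plant 4 joined them at the last, 28.8 Mb beyond the fifth, and plant 1 at the fourth alone.

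Chromosome 8 held a change of carriers over short distances. The insertions from 14931211 to 14931219 and from 16969363 to 16969371 were in plants 3 and 4 and not in plant 2, whereas the sites on either side, 2.60 and 3.27 Mb away, were in all 3 plants. In leaf of plants 3 and 4, the first had 2778 and 3064 CPM and the second 4331 and 4566 CPM. In endosperm the values were 3352 and 6389 CPM for the first and 3788 and 2636 CPM for the second. Plant 2 had 0 counts in leaf and 0 in endosperm at the first, and 1 leaf count (2.63 CPM) and 0 endosperm counts at the second. The interval of 2.60 Mb was the shortest between neighbouring shared insertions with different carriers. Among the segregating paternal insertions carried by at least a pair of plants 2, 3 and 4, the shortest such interval was 1.63 Mb.

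Each shared insertion was then set beside the nearest segregating paternal insertion, comparing presence in plants 2, 3 and 4. The state was the same in all 3 plants for 11 shared insertions, opposite in all 3 for 11, and different in 1 or 2 of the plants for 14. No chromosome held both a shared insertion in the same state and one in the opposite state, while those that differed in 1 or 2 plants were on every chromosome with shared insertions. On chromosome 1, 6 of 7 were opposite and 0 were the same. On chromosome 3, 5 of 6 were opposite and 0 were the same, and on chromosome 4, 6 of 7 were the same and 0 were opposite. Neighbouring shared insertions often had the same nearest paternal insertion, so these counts are not of separate comparisons. The distance had a median of 8.07 Mb, but it was 76.7 Mb for the first shared insertion on chromosome 4. It was 110.2 Mb for the shared insertion on chromosome 1 that starts at 144495030.

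On chromosome 1, the first paternal insertions, from 4236560 to 4236568 and from 4471193 to 4471201, were in all of plants 2, 3 and 4. Those from 18661154 to 18661162, from 27124808 to 27124816 and from 34300461 to 34300469 were in plant 4 and not in plants 2 and 3. The 3 new insertions that follow or lie between them, from 31886868 to 48416210, were in plants 2 and 3 and not in plant 4. At the other end, the paternal insertion from 307400988 to 307400996 was in plant 3 alone of all 7 plants, and the new insertion 2.46 Mb away, from 309861145 to 309861153, was in plants 2 and 4. On chromosome 4, the paternal insertions from 99086022 to 99086030 and from 184626768 to 184626776 were in plants 2 and 3 of the 3, as were the new insertions near them, while the one from 198551721 to 198551729 was in plant 3 alone of the 3. The 20 shared insertions within 10 Mb of a segregating paternal insertion comprised 7 in the same state, 4 in the opposite state and 9 that differed in 1 or 2 plants.

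The paternal insertions that the plants received were measured independently of the rule. Of 92 sites at 1000 or more CPM in the father, 32 were in both tissues of all 7 plants and 60 segregated. Plants 2, 3 and 4 received 28, 29 and 34 of the 60, and plants 1, 5, 8 and 9 received 28, 36, 28 and 36. As a share this was 50.6% ± 5.36 (SD, n = 3) against 53.3% ± 7.70 (SD, n = 4), a difference of -2.78 percentage points (two-sided exact permutation test, p = 0.657, adjusted p = 0.875 over the 4 tests made here by Benjamini-Hochberg). With 3 plants against 4, the smallest p this test can give is 0.0286. The Wilson 95% confidence interval of a single plant was wide, for example 34.6 to 59.1% in plant 2. It takes the 60 sites as independent. Among 30 of them, pairs on one chromosome had the same carriers more often than pairs on different chromosomes, so the interval may be too narrow.

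Plants 2, 3 and 4 were not marked by a paternal insertion of their own. All of them and none of the others carried 0 of the 60 sites, and the reverse pattern was also seen at 0 sites. Their carriers were spread over every combination: 11 paternal insertions were in all 3 plants, 9 in plants 2 and 3, 6 in plants 2 and 4, 4 in plants 3 and 4, 20 in a single one of them and 10 in none. Of the 50 found in any of the 3 plants, 30 were in at least a pair (60%), and of the 57 found in any of plants 1, 5, 8 and 9, 49 were (86%). These shares include inheritance from a father that carried the sites, and they are the background for the 30.5% and 0% of new insertions. A pair is easier to find among 4 plants than among 3, so the 60% and 86% are not compared with each other.

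By pairs of plants, the state of the 60 paternal insertions was the same at 71.7% of sites for plants 2 and 3, at 53.3% for plants 2 and 4 and at 45.0% for plants 3 and 4. The mean of these 3 pairs, 56.7%, exceeded that of all other pairs by 5.93 percentage points, which was less than the SD of 8.93 between the other pairs. The highest value of any pair, 73.3%, belonged to plants 1 and 2, which had 1 new insertion in common. Without plant 2 the difference was -4.84 percentage points and without plant 4 it was 22.1. The order of pairs by new insertions in common, with plants 2 and 3 first and plants 2 and 4 last, was not that of the paternal insertions, where plants 3 and 4 were last of the 3.

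**Figure D3:**
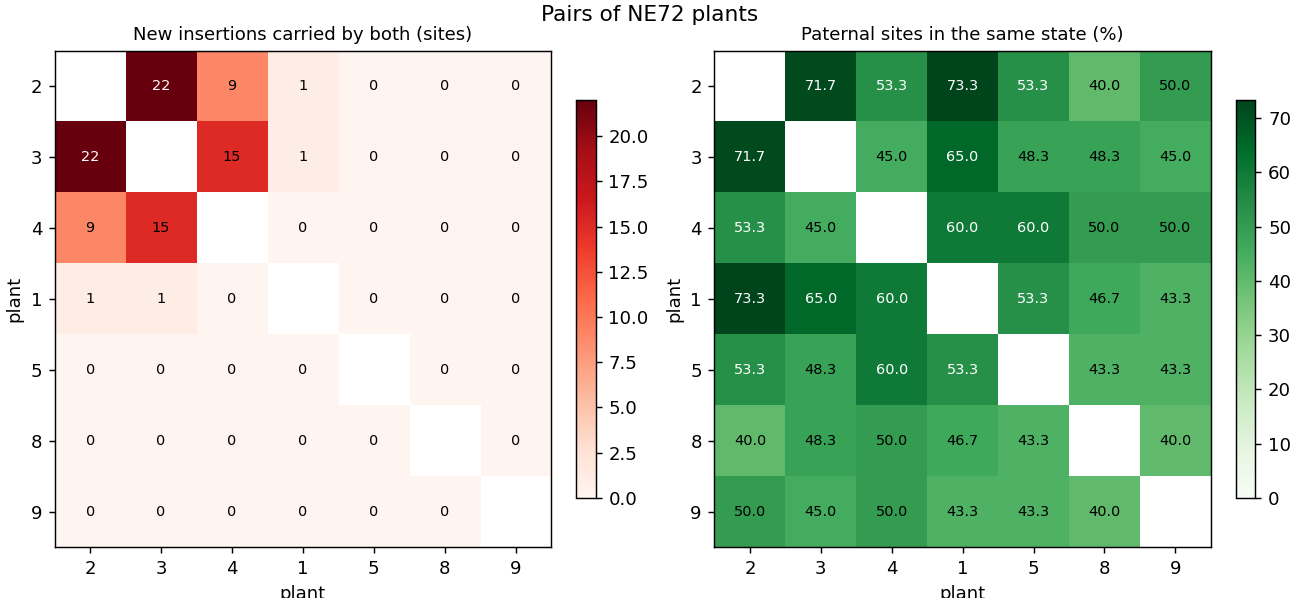
Pairs of the 7 NE72 plants by the number of new insertions carried by both (left, sites) and by the share of the 60 segregating paternal insertions in the same state (right, percent). New insertions in common reach 22, 15 and 9 within plants 2, 3 and 4 and at most 1 elsewhere, whereas the paternal shares of these 3 pairs, 71.7, 45.0 and 53.3%, lie within the range of the other pairs, 40.0 to 73.3%.

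Shared and single-plant insertions differed in level by less than the spread between plants. The level was summarised in each library as the median of log2(CPM + 1), and the difference was taken within a plant. In leaf, the shared minus single-plant difference was 0.10, -0.13 and -0.10 in plants 2, 3 and 4, and -0.34 in plant 1, where it rests on 1 shared insertion. Its mean was -0.12 ± 0.18 (SD, n = 4, two-sided exact sign-flip permutation test, p = 0.375, adjusted p = 0.75). Leaving out plant 1 gave -0.04 (n = 3, exact p = 0.75). In endosperm the differences were 0.16, -0.17 and 0.01 in plants 2, 3 and 4, with -0.10 in plant 1. Their mean was -0.03 ± 0.15 (SD, n = 4, exact sign-flip permutation test, p = 0.875, adjusted p = 0.875), and without plant 1 it was close to 0 (0.0011, n = 3, exact p = 1). With 4 plants the smallest p this test can give is 0.125.

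New insertions were also compared with the paternal ones received by the same plant. The median of shared insertions minus that of the segregating paternal insertions in the same library was -0.10 ± 0.02 in leaf and -0.12 ± 0.15 in endosperm of plants 2, 3 and 4 (log2 scale, SD, n = 3). For all new insertions the difference to paternal insertions was 0.03 ± 0.15 in leaf and -0.05 ± 0.13 in endosperm (SD, n = 7). Leaf exceeded endosperm in this difference by 0.08 ± 0.13 on the log2 scale over the 7 plants, within the spread between plants (two-sided exact sign-flip permutation test, p = 0.188, adjusted p = 0.75). The difference was positive in 4 of 7 plants and ran from -0.06 in plant 9 to 0.23 in plant 5. The unadjusted exact permutation p fell below 0.05 under 2 alternatives, at a minimum of 2000 CPM (0.12, n = 7, p = 0.0469) and at matched depth (0.14, n = 7, p = 0.0312).

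**Figure D4:**
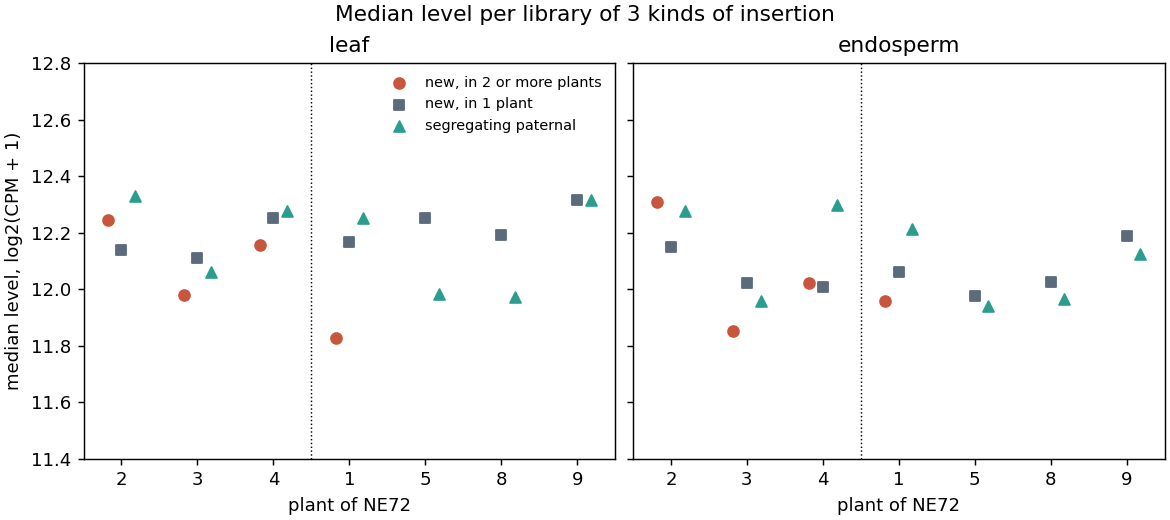
Median level per library, as log2(CPM + 1), of shared new (circles), single-plant new (squares) and segregating paternal insertions (triangles) in leaf and endosperm of each plant. All medians lie between 11.8 and 12.3, and no kind of insertion is highest in every library.

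Single-plant insertions of high level were present in every plant. The highest of each plant, by the mean of its tissues, had 6454 CPM in plant 2 (chromosome 2 from 223145879 to 223145887), 5986 CPM in plant 3 (chromosome 4 from 182878721 to 182878729) and 6124 CPM in plant 4 (chromosome 3 at 183599035). In the other plants it had 7458 CPM in plant 1 (chromosome 4 from 246217558 to 246217566), 5580 CPM in plant 5 (chromosome 5 from 1522122 to 1522130), 6611 CPM in plant 8 (chromosome 4 from 172416314 to 172416322) and 7347 CPM in plant 9 (chromosome 1 from 291115332 to 291115340). Of the 294 single-plant insertions, 267 were at 2000 CPM or more in both tissues and the lowest was at 1000.2 CPM, whereas the lowest shared one was at 1962 CPM.

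By chromosome, shared insertions were most frequent on chromosomes 1 and 4, with 7 each of 36, followed by chromosomes 3 and 8 with 6 each. Chromosome 7 had 0 shared insertions, against 22 of 294 single-plant insertions (7.48%) and 8 of 60 segregating paternal ones. On chromosome 8 the shared insertions made up 16.7% of their kind, and the single-plant insertions of plants 2, 3 and 4 were 2 of 82 (2.44%), while those of plants 1, 5, 8 and 9 were 25 of 212 (11.8%). Of all new insertions of the family, 33 of 330 (10%) lay there. Shared and single-plant insertions of plants 2, 3 and 4 divide the same new insertions, so the first 2 shares depend on each other. Chromosomes 1 and 4 also held the most single-plant insertions, 48 and 43 of 294. The shared sites on a chromosome are not independent of each other, and no test was made of these counts.

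The distance from the nearest chromosome end, with ends taken as the first and last position in the table, was a median of 31.5 Mb for shared and 34.6 Mb for single-plant insertions, and 24.1 Mb for segregating paternal ones. Within 20 Mb of an end lay 9 of 36 shared insertions (25%), 104 of 294 single-plant insertions (35.4%) and 28 of 60 paternal ones (46.7%). The single-plant insertions of plants 2, 3 and 4 had a median of 44.2 Mb, with 24 of 82 (29.3%) within 20 Mb. Those of plants 1, 5, 8 and 9 had a median of 32.4 Mb, with 80 of 212 (37.7%) within 20 Mb.

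**Figure D5:**
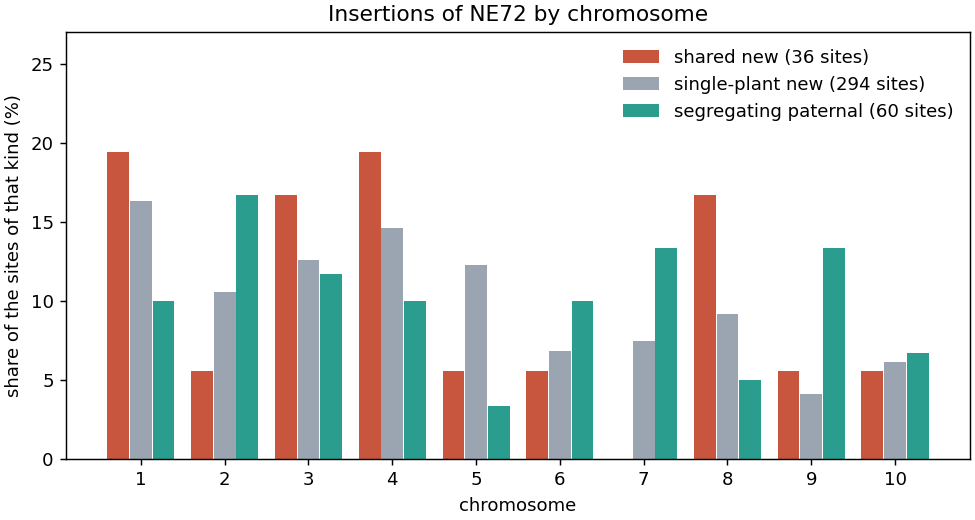
Share of the shared new, single-plant new and segregating paternal insertions of NE72 that lay on each chromosome (percent of each kind, bars from 0). Shared insertions are at 19.4% on chromosomes 1 and 4 and at 16.7% on chromosomes 3 and 8, and none lay on chromosome 7.

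Under the same rule, sharing was rarer in the other families. NE71 had 3 shared of 148 new insertions (2.03%), NE73 had 0 of 74 (0%) and NE74 had 5 of 272 (1.84%). In NE71 each of the 3 had its own set of carriers. In NE74, 4 of the 5 were in plants 1 and 2 and the fifth in plants 3 and 7, so the most insertions that any plant outside NE72 shared was 4, against 32 in plant 3 of NE72. The families also differ in new insertions per plant, which averaged 53.1 ± 5.55 in NE72 (SD, n = 7) and 19.0 ± 7.60, 10.6 ± 5.41 and 34.6 ± 8.37 in NE71, NE73 and NE74 (SD, n = 8, 7 and 8). Each family has 1 father, so the family and the father cannot be told apart.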

How the data were processed

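The authors deposited raw counts for 1091553 insertion sites in 64 libraries and a table of 1058 sites that marks inheritance by each plant with 0 or 1, whose criteria are not given in the sources used here. Bowtie2 is named in the submitters' processing notes. The genome build, the counter and whether reads or molecules were counted are not given in the sources used here. Columns were assigned by library name, with 0 columns left over. CPM was computed from the deposited counts, and levels as log2(CPM + 1). Presence in a plant needed 1000 CPM in both tissues. A segregating paternal insertion had 1000 CPM in the father and was present in 1 to 6 of the 7 plants. Leaf and endosperm were paired by plant number, which the labels give for the same kernel: at 1000 CPM, 7 of 7 endosperm libraries overlapped best with their own leaf (lowest Jaccard index 0.904, highest with another leaf 0.461).

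Sets of plants were compared by two-sided exact permutation and tissues by exact sign-flip permutation (Python 3.11.15, NumPy 2.4.6, SciPy 1.17.1), with Benjamini-Hochberg adjustment over 4 tests. The test planned for single-plant insertions per plant was dropped, since that number is not independent of the sharing that chose the plants. Sites were named by level, by carriage by all of plants 2, 3 and 4 or by any other plant, and by nearness to the minimum. The calls were tested on 200 simulated insertions. Carriers were simulated well above the minimum and fathers nearly empty at new sites, so levels near the minimum and the father filter were not probed. The plants, lists and rules were chosen with earlier results of these data known. The alternatives are given under the dependence on processing.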

Additional observations from a re-analysis of the deposited data

Results flagged for a closer look

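In 30 sets of per-plant values (plants 1, 5, 8 and 9, or all 7), 2 held a value far from the rest by Dixon's criterion. Plant 1 had 1 shared new insertion and plants 5, 8 and 9 had 0, which is a description of the sharing that chose the plants, since any single count among zeros meets the criterion. The other set had a measured level, for which chance meets it in about 1 set in 20. In endosperm, the median level of the new insertions of plant 1 minus that of its segregating paternal insertions was -0.16 on the log2 scale, against 0.04, 0.06 and 0.06 in plants 5, 8 and 9. Over all 7 plants it did not stand apart, since plant 4 was lower at -0.28.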

How the results depend on the processing

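Leaving out a plant moved the descriptions of sharing most. The shared insertions numbered 10 to 36 (10 without plant 3, 16 without plant 2, 22 without plant 4), their difference per plant between the sets ran from 9.25 to 25.7, that of single-plant insertions from -28.7 to -12, and that of all new insertions, -0.25, from -3.33 to 2.75. The excess of paternal sharing of pairs within plants 2, 3 and 4 over other pairs ran from -4.84 percentage points without plant 2 to 22.1 without plant 4. Asking for 0 counts in each father gave 30 shared insertions, a difference of 21.1 shared insertions per plant and one of -20.25 single-plant insertions per plant. All new insertions differed by 0.833 per plant there, by 2.67 at 2000 CPM and by 0.25 with at least 10 counts in both tissues, all within the SD between plants. Other minima of CPM or counts and merging within 10 bp gave 35 or 36 shared insertions. Matched depth, with the deeper library of each plant thinned to the shallower, gave 36, but depth between plants stayed unequal. Taking new or paternal status from the authors' deposited table, with presence still called at 1000 CPM, also gave 36. The leaf minus endosperm difference of new against paternal insertions was 0.12 at 2000 CPM (n = 7, exact permutation p = 0.0469) and 0.14 at matched depth (n = 7, exact permutation p = 0.0312), the cause was not tested, and without any 1 plant it kept its sign. The other 3 tests (paternal share received, leaf level, endosperm level) stayed above 0.05 in every alternative, with lowest p of 0.4, 0.25 and 0.5 by exact permutation, although their small differences changed sign in 1, 1 and 4 alternatives. Levels were paired by plant, and with no replicate block the 3 differences of -0.12, -0.03 and 0.08 had exact permutation p of 0.314, 0.829 and 0.321, which changed no call. Only levels in plants 2, 3 and 4 were examined as an alternative added after seeing the data. Endosperm of plants 5 and 8, where 1000 CPM is 10.2 and 6.00 counts, limits single values most. The father's tassel was not analysed here.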

Other observations

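Low-level leaf sites were counted for each pair of plants. Sites with 3 or more counts in leaf of exactly a pair of NE72 plants, 0 counts in every other library outside NE72 leaf and no new or paternal insertion within 100 bp were taken, a measure chosen after seeing the data. Plants 2 and 3 had 21 such sites in common, but plant 3, the deepest leaf library, also had 19 with plant 1, 19 with plant 5 and 20 with plant 9. Plants 3 and 4 had 9 and plants 2 and 4 had 4, the same order of these 3 pairs as for the shared new insertions. The product of their leaf totals fell in this order too, from 2.61e+11 over 2.15e+11 to 1.19e+11. Plants 5 and 9 had 13. The mean per pair was 11.3 within plants 2, 3 and 4 (3 pairs), 5 within plants 1, 5, 8 and 9 (6 pairs) and 6.5 between the sets (12 pairs). Plant 8, the shallowest leaf library, had 0 with any plant, which lowers the means of 5 and 6.5 but not that of 11.3. The part of depth in these numbers was not tested.

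Sites near the minimum were counted on both sides of it. Sites whose highest plant level, taking the lower tissue, was at least 500 and under 1000 CPM, with under 10 counts in each father, numbered 10. Single-plant insertions at 1000 CPM or more and under 2000 CPM numbered 27. The range below the minimum is narrower than the one above it, so these numbers do not show a gap at the minimum.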
